A study of Mus musculus with 30 samples.

Results

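This comparison sets 5 adipocyte libraries of male mice labelled knockout against 4 libraries of stromal-vascular cells (SVC) of male mice with the same label. It therefore used 9 of the 30 libraries of a study of β-catenin in mouse white fat. The libraries were chosen by their labels alone: adipocyte libraries KO1, KO2, KO3, KO4 and KO6 and SVC libraries KO3, KO4, KO5 and KO6, numbered as in the deposited columns. The genotype label is Ctnnb1AdKO, an adipocyte knockout of Ctnnb1, which encodes β-catenin. The labels used here name neither the driver of the deletion nor the exons removed. The 9 male control libraries, labelled Ctnnb1fl/fl (6 of adipocytes, 3 of SVC), share the floxed allele. They were fitted together with the labelled knockouts, so they also bear on the filter, scaling and spread behind each call, and they served to test where the difference between fractions depends on the genotype label. Controls were matched for sex and age, and no age is stated. Every library is labelled with both the epididymal (eWAT) and the posterior subcutaneous (psWAT) depot. Minced fat was digested in collagenase type I at 500 U/ml, for 20 min (eWAT) or 30 min (psWAT), and spun at 80 g for 8 min, so that adipocytes floated and SVC formed the pellet. Nothing in the labels ties a number to 1 mouse, and p-values measure the spread between these libraries. Total counts of the 9 libraries lay between 20484836 and 22153914.

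Mature adipocytes store triglyceride in 1 large droplet, take up glucose and fatty acids under insulin, release fatty acids under catecholamines and secrete hormones such as leptin and adiponectin. Stromal-vascular cells are everything else that collagenase frees from fat: fibroblasts and adipocyte progenitors, macrophages, lymphocytes, mast cells, endothelial and mural cells, mesothelium and blood. In Wnt signalling, secreted ligands bind Frizzled receptors with Lrp5 or Lrp6, which spares β-catenin from a destruction complex built on Axin, Apc and Gsk3 and lets it act with TCF and LEF factors in the nucleus. β-catenin also ties cadherins to actin at cell junctions.

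Ctnnb1 itself was measured in both fractions, and its transcript did not follow the knockout label. In adipocyte libraries KO1, KO2, KO3, KO4 and KO6 it stood at 338, 369, 361, 358 and 424 CPM (counts scaled to library size, adjusted by the TMM method). In SVC libraries KO3, KO4, KO5 and KO6 it stood at 437, 266, 434 and 634 CPM, so the groups overlapped through SVC library KO4. The log2 fold change (adipocytes minus SVC throughout) was -0.26, SE 0.17, adjusted p = 0.161, which did not pass the threshold of 0.05. Without SVC library KO4 the value was -0.45 (adjusted p = 0.00319) and Ctnnb1 was called lower in adipocytes. Control adipocytes averaged 378 ± 10.9 CPM (SD, n = 6) against 369.9 ± 32.2 CPM (n = 5) under the knockout label (exact two-sided permutation p = 0.576). Control SVC averaged 406 ± 16.8 CPM (n = 3) against 443 ± 151 CPM (n = 4; exact permutation p = 0.629). Gene counts do not show which exons were read, and the mice are therefore called labelled knockouts.

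1 SVC library stood apart from the others. SVC library KO4 correlated with the other 3 at r = 0.789 to 0.808 (log2 values across genes), whereas those 3 correlated with each other at 0.956 to 0.975 and the adipocyte libraries at 0.979 to 0.992. In it, 692 genes lay at least 16-fold above the highest other SVC library (on the CPM + 1 scale), among them Ldhc and Akap4. Ldhc, the lactate dehydrogenase of sperm, read 0.774, 968, 0.953 and 3.97 CPM in SVC libraries KO3, KO4, KO5 and KO6. Akap4, a protein of the sperm tail, read 0.896, 347, 0.373 and 2.02 CPM. A list of 20 germ cell genes, drawn up after these values were seen, took 0.834% of the counts of library KO4 and between 0.00423% and 0.00853% of the other 3. Of the genes called lower in adipocytes, 919 were no longer called without library KO4, and of those called higher 281. Several values that rest on it are given with and without it. Epithelial transcripts were uneven among the SVC libraries as well. Epcam, an adhesion molecule of epithelia, read 48.3, 10.0, 1.49 and 27.1 CPM in SVC libraries KO3, KO4, KO5 and KO6 and was at or below 0.052 CPM in every adipocyte library. Krt8, a keratin of simple epithelia, read 186, 20.1, 4.35 and 100.2 CPM. The part of these transcripts in the results below was not tested beyond leaving out library KO4.

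The fractions differed at most genes. Of 17251 genes tested with edgeR's quasi-likelihood test, 13199 (76.5%) differed at an adjusted p below 0.05: 5487 (31.8%) were higher and 7712 (44.7%) lower in adipocytes. Beyond 2-fold, tested with glmTreat, 2819 (16.3%) were higher and 5450 (31.6%) lower. Without SVC library KO4, 5931 of 16861 genes tested were higher and 7129 lower, and beyond 2-fold 3109 and 4876. All 5 adipocyte libraries lay above or below all 4 SVC libraries in CPM for 10297 genes (59.7%). With this background, a call on any 1 gene is common, and the size of a difference says more than the call. The median log2 fold change over all genes tested was -0.29 (-0.17 without SVC library KO4). Scaling to library totals in place of TMM moved it to -0.75, and the share of calls that were higher from 41.6% to 29.1%. Differences smaller than about this shift depend on the scaling. Expression was also more concentrated in adipocytes, where the 50 most counted genes took 27.8% ± 0.749 of counts (n = 5) against 15.2% ± 1.68 in SVC (n = 4; exact permutation p = 0.00794, the smallest this design allows; 0.0151 adjusted over 19 such quantities). In bulk RNA, fewer cells of a type and less RNA per cell cannot be told apart.

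**Figure D1:**
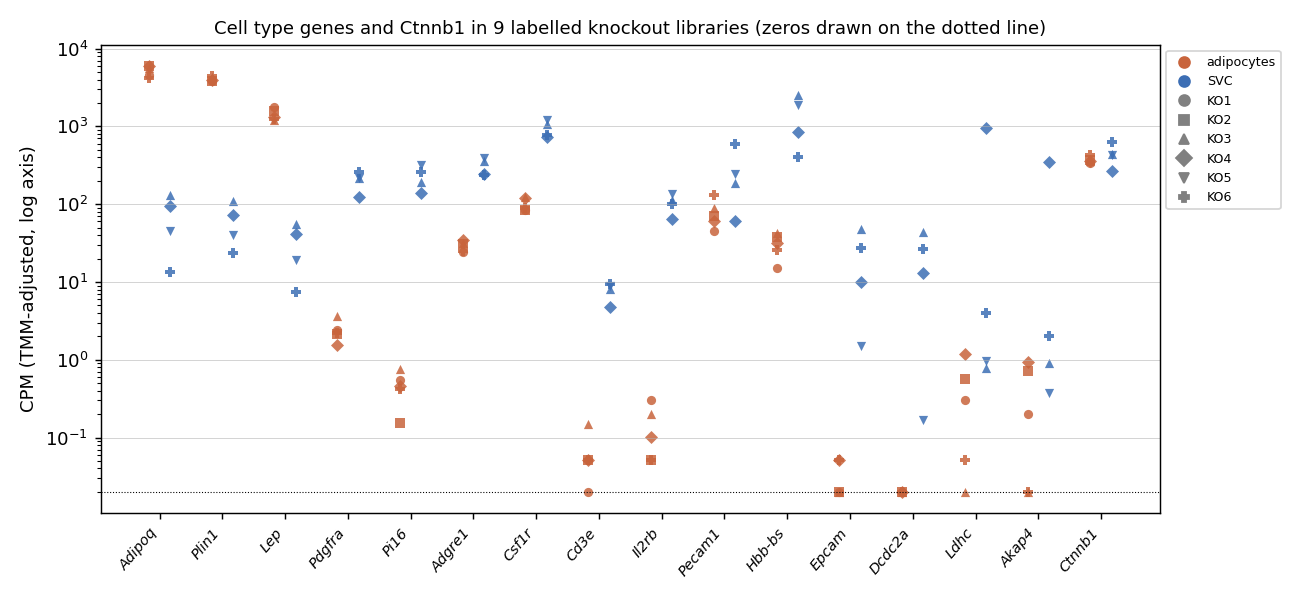
Expression of 15 cell type and tissue genes and of Ctnnb1 in CPM (log axis) in each of the 5 adipocyte (orange) and 4 SVC (blue) libraries, with the marker shape giving the library number. Adipoq, Plin1 and Lep lay in separate ranges in the fractions, Ctnnb1 overlapped, and Ldhc and Akap4 were high in SVC library KO4 alone.

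The fraction labels held for the markers of fat cells. All 16 genes of mature adipocyte identity were higher in adipocytes, 15 of them beyond 2-fold, with a median log2 fold change of 5.67. Adipoq, which encodes the hormone adiponectin, read 4613, 5993, 5605, 5958 and 4181 CPM in adipocyte libraries KO1, KO2, KO3, KO4 and KO6. In SVC libraries KO3, KO4, KO5 and KO6 it read 130.4, 93.9, 45.0 and 13.5 CPM, so adipocyte transcripts were present but low in the pellet. The log2 fold change was 6.22, SE 0.75, adjusted p = 1.25e-06. Lep, the leptin gene, read 1796, 1561, 1197, 1323 and 1248 CPM in the adipocyte libraries and 55.4, 41.1, 19.1 and 7.47 CPM in the SVC libraries, in the same orders. Plin1, which coats the lipid droplet and gates lipolysis, read 3792, 3783, 4261, 3931 and 4441 against 109, 73.4, 40.2 and 23.5 CPM. All 3 genes fell in the same order across the SVC libraries, with KO3 highest and KO6 lowest. Summed over the list, the 16 genes took 85477 to 111121 CPM in adipocytes and 3933 to 5569 CPM in SVC. The largest means in SVC were those of Cd36 (1994 CPM), Fabp4 (1011 CPM) and Lpl (844 CPM). By this sum SVC library KO4, not KO6, was the lowest.

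In the other direction, fibroblast, immune and endothelial markers were lower in the floating fraction to different extents. Pdgfra, the receptor that marks adipocyte progenitors, read 2.42, 2.13, 3.62, 1.54 and 2.18 CPM in adipocyte libraries KO1, KO2, KO3, KO4 and KO6 and 219.5, 122, 219 and 260.5 CPM in SVC libraries KO3, KO4, KO5 and KO6. Its log2 fold change was -6.43, SE 0.31, adjusted p = 2.34e-11. Lymphocyte genes were nearly absent from adipocytes, and their sum was 65.1-fold higher in SVC. Macrophage genes were less depleted: their sum was 810.3 to 1318 CPM in adipocytes against 6333 to 11008 CPM in SVC, an 8.11-fold ratio. Endothelial genes were the least depleted of these sums at 3.34-fold, with library ranges of 344 to 932 and 521 to 3953 CPM (exact permutation p = 0.0238, 0.0411 adjusted over 19 quantities; 2.14-fold without SVC library KO6, the highest). The summed pericyte, smooth muscle and Schwann genes were not lower in adipocytes, at 994 against 768 CPM (exact permutation p = 0.468), a ratio of 1.29, or 2.13 without SVC library KO6. Mcam took most of this sum in adipocytes. Of the 12 genes tested, 7 were lower and 2 higher, with a median log2 fold change of -1.80. SVC library KO4 was the lowest in endothelial genes: Pecam1, an adhesion molecule of endothelium, read 188, 61.3, 241 and 595 CPM in SVC libraries KO3, KO4, KO5 and KO6. The defining red cell genes stayed low in adipocytes, where Hbb-bs, a β-globin, read 14.9, 37.8, 42.9, 32.1 and 25.8 CPM against 2562, 851, 1912 and 409 CPM in SVC.

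The naming rule asked for at least 20 CPM, no overlap and a change beyond 2-fold. By it, the 12 genes with the largest rise in adipocytes were Retn, Cfd, Nnat, Mogat1, Cyp2e1, Thrsp, Crtac1, Ces1f, Slc7a10, Ctcflos, Adipoq and Apol6. Their log2 fold changes were 6.19 to 6.78. Ctcflos is transcribed opposite another gene, and the strand setting of the counting is not given in the sources used here. Retn encodes resistin, a fat cell hormone of the mouse, and read 1687, 1932, 1693, 2208 and 2461 CPM in adipocytes and 27.3, 26.6, 13.5 and 5.49 CPM in SVC (log2 fold change 6.78, SE 0.70, adjusted p = 1.86e-07). Cfd encodes adipsin, a protease of the complement pathway, and averaged 18341 ± 3503 against 169 ± 118 CPM. Mogat1, which makes diacylglycerol from monoacylglycerol, read 79.0, 85.2, 103, 101 and 145 CPM in adipocytes and 2.44, 1.47, 0.663 and 0.389 CPM in SVC. Of 17 secreted factors of fat cells, 12 were higher and 4 lower. Nrg4, a growth factor of the EGF family, was among the higher at 105, 171, 153, 141 and 137 CPM against 3.75, 2.14, 1.57 and 1.32 CPM. Fst, the activin antagonist follistatin, went the other way, from 41.2 ± 2.51 CPM in SVC to 2.36 ± 0.914 CPM in adipocytes.

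The promoters of Lep, Plin1 and Pdgfra are shown because they stand for a hormone gene and a droplet gene that were high in adipocytes and a progenitor gene that was low. Each runs from 250 bases before to 50 bases after the gene start, 5′ to 3′ on the gene's strand, from RefSeq on GRCm38.p6, which is not the build of the counts. Capitals mark matches to TTGCNNAA on either strand, a short form of the motif of C/EBP factors.
Lep, chr6:29059971-29060270, + strand: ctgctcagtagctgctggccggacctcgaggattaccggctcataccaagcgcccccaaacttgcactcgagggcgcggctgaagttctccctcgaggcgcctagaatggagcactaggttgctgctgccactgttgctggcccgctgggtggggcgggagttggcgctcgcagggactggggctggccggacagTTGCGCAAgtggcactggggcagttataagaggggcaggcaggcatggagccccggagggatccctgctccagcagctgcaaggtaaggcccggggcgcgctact
Plin1, chr7:79732727-79733026, - strand: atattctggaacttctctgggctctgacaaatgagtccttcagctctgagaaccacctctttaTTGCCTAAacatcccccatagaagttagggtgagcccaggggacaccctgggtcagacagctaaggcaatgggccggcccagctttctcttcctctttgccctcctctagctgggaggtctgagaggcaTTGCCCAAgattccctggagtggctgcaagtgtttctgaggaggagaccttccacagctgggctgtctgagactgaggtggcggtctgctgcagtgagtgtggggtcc
Pdgfra, chr5:75152001-75152300, + strand: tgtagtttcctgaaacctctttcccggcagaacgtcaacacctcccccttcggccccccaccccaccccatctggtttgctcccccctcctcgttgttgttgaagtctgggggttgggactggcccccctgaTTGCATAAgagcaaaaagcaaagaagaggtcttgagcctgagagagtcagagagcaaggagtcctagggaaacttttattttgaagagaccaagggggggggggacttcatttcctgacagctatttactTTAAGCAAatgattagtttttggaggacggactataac
The Lep match starts 55 bases before the gene start, and those of Plin1 start 187 and 58 bases before it. Pdgfra holds 2 matches as well, although its transcript was 86.1-fold higher in SVC. The motif occurs in 10.8% of the 2470 promoters of genes higher in adipocytes beyond 2-fold, in 10.0% of the 4917 of genes lower beyond 2-fold and in 9.05% of the 15718 of all genes tested, so the shares lie close together. The TATA-box letters TATAAA, searched on either strand over the whole stretch, occur in 7.41%, 10.2% and 8.03% of the same promoters.

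Transcription factors of fat cell formation were higher as a group (13 of 16 higher, 2 lower). Pparg, the nuclear receptor that drives adipogenesis, read 298, 379.7, 300.2, 289 and 409 CPM in adipocytes and 45.1, 25.1, 48.7 and 63.0 CPM in SVC, a log2 fold change of 2.88, SE 0.22, adjusted p = 3.94e-09. Cebpa, which acts with Pparg to hold the mature state, averaged 951 ± 154 against 102 ± 23.0 CPM. The 2 that fell were Cebpd, an early inducer of adipogenesis (150.5 ± 39.1 against 243 ± 72.5 CPM, -0.69, SE 0.23, adjusted p = 0.011, not called without SVC library KO6), and Ebf2, a factor of brown and beige progenitors (36.3 ± 10.4 against 65.6 ± 20.6 CPM, -0.85, SE 0.24, adjusted p = 0.00433). Ebf2 was not called with the replicate number as a block (adjusted p = 0.0664).

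Lipid handling separated the fractions by enzyme. All 12 lipid droplet genes were higher, as were 15 of 18 genes of lipolysis and its hormonal control and 13 of 16 genes of triglyceride synthesis. Lipe, hormone-sensitive lipase, averaged 3489 ± 211 against 105 ± 43.1 CPM (5.06, SE 0.28, adjusted p = 7.50e-11), and Pnpla2, the first lipase of the cascade, 4212 ± 599 against 171 ± 42.5 CPM (4.62, SE 0.21, adjusted p = 1.44e-11). Receptors were among the 3 lipolysis genes that fell, with Adra2a, the inhibitory α2 adrenergic receptor, and Npr1, the natriuretic peptide receptor. Npr1 averaged 14.9 ± 4.68 against 92.4 ± 44.7 CPM (-2.63, SE 0.30, adjusted p = 4.41e-07). Fatty acid uptake and activation did not move as 1 group, with 9 of 17 genes higher and 8 lower. Lpl, which frees fatty acids from lipoproteins, averaged 9279 ± 928 against 844 ± 143 CPM, and Cd36, a fatty acid transporter also found on macrophages and endothelium, read 4478, 4727, 3804, 4733 and 3380.0 CPM in adipocytes and 1751, 1254, 2670.3 and 2299 CPM in SVC. The Cd36 difference, 1.08, SE 0.20, adjusted p = 0.000133, was called but did not pass the 2-fold test (adjusted p = 0.262).

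Fatty acid synthesis was higher in adipocytes and uneven among them. Of 18 genes, 15 were higher and 2 lower. Fasn, fatty acid synthase, read 10200.4, 5529, 5749.9, 3654 and 31226 CPM in adipocyte libraries KO1, KO2, KO3, KO4 and KO6, against 409.7, 255, 155 and 314 CPM in SVC. Library KO6 stood far above the others here. It was also highest for Acaca, which commits acetyl-CoA to fatty acids (1053, 837, 914, 594 and 3196 CPM), for Acly, which makes cytosolic acetyl-CoA (983, 468, 532, 375 and 5909.5 CPM), and for Thrsp, a lipogenic regulator (1092, 1306, 1286, 1216 and 6137 CPM). Srebf1, the transcription factor of lipogenesis, followed the same order at the top, with 494, 549, 526, 486 and 1313 CPM. Scd1, which desaturates fatty acids, did not: it read 46018, 49403, 48823, 53549.9 and 52311 CPM across the same libraries. Every one of these genes was called higher than in SVC (5.31, SE 0.64, adjusted p = 1.04e-06 for Fasn and 2.67, SE 0.69, adjusted p = 0.0022 for Acly). Without library KO6 the log2 fold changes were 4.47 for Fasn, 4.12 for Acaca, 1.18 for Acly and 5.43 for Thrsp, against 5.31, 4.75, 2.67 and 6.27 with it. With the replicate number as a block, which keeps only numbers 3, 4 and 6, Acly fell just short (adjusted p = 0.0501). Sfrp5, described with the Wnt genes, was lowest in the same library. The 2 genes that were lower in adipocytes were Elovl5, an elongase (76.1 ± 8.63 against 177 ± 50.1 CPM) and Fads2 (7.54 ± 8.64 against 54.1 ± 30.6 CPM), whose log2 fold change was -2.84, and -3.87 without library KO6, its highest. Fads1, a desaturase that acts with Fads2 on polyunsaturated fatty acids, was higher (155 ± 59.4 against 80.7 ± 22.4 CPM, 0.94, SE 0.23, adjusted p = 0.00162), but was not called with library totals (adjusted p = 0.0544).

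**Figure D2:**
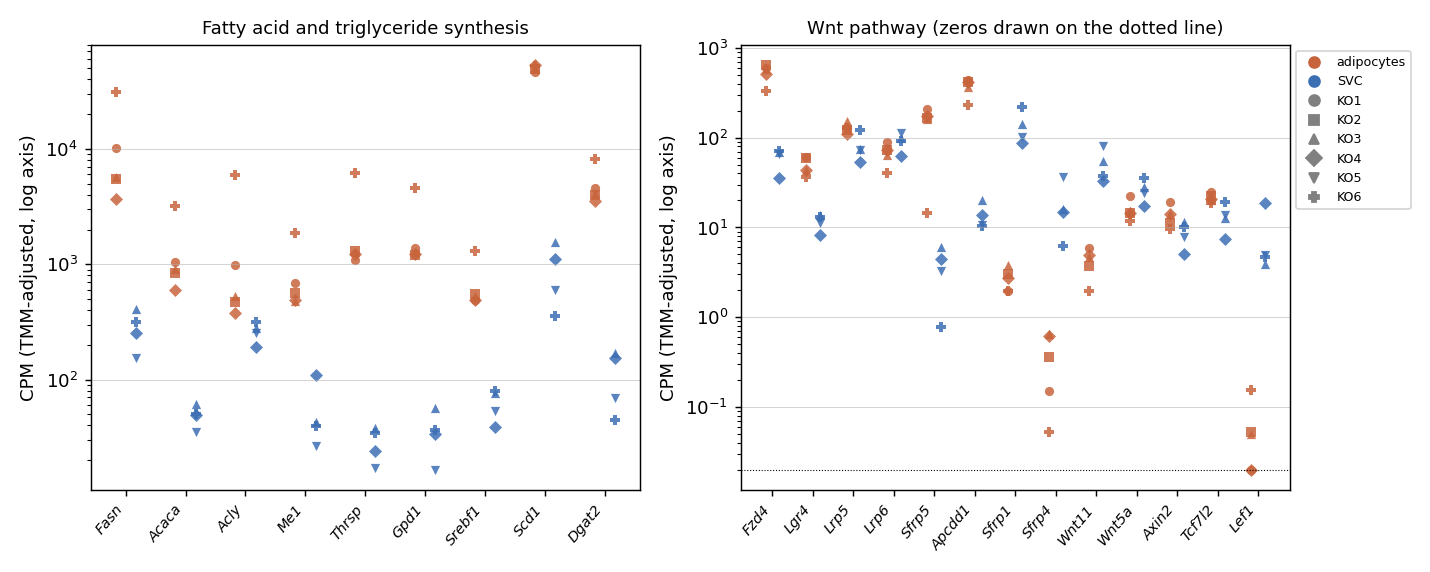
CPM (log axis) of 9 genes of lipid synthesis and 13 Wnt pathway genes in each adipocyte (orange) and SVC (blue) library, with the marker shape giving the library number. Adipocyte library KO6 (plus sign) was the highest for Fasn, Acaca, Acly, Me1, Thrsp and Gpd1 and the lowest for Sfrp5, Apcdd1 and Fzd4.

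Mitochondrial genes were higher in adipocytes in each list examined. All 30 nuclear-encoded genes of the respiratory chain were higher, each beyond 2-fold, with a median log2 fold change of 2.15. Atp5b, a subunit of ATP synthase, averaged 3418 ± 835 against 633 ± 44.5 CPM (2.43, SE 0.19, adjusted p = 5.76e-09), and Sdha, of complex II, 935 ± 195 against 172 ± 21.6 CPM. Of 11 protein genes of mitochondrial DNA, 10 were higher and none lower. The share of all counts from mitochondrial DNA was 2.28% ± 0.561 in adipocytes and 1.39% ± 0.304 in SVC (exact permutation p = 0.0317, 0.0503 adjusted over 19 quantities), and the p was above 0.05 when any library other than adipocyte library KO6 was left out. Fatty acid oxidation was higher at 16 of 17 genes. Cpt1a, the carnitine transferase at its entry, was the member not called, at 98.5 ± 7.10 against 123 ± 36.1 CPM (-0.32, SE 0.15, adjusted p = 0.052), and was called lower without SVC library KO4 or KO6 or adipocyte library KO1, with DESeq2, limma on rlog values, RLE, upper-quartile or library-total scaling, and with the filter of at least 1 CPM. Breakdown of branched-chain amino acids was higher at 18 of 19 genes, among them Ivd, isovaleryl-CoA dehydrogenase (581 ± 51.5 against 36.1 ± 6.53 CPM, 4.01, SE 0.15, adjusted p = 5.18e-12), and Bckdha, of the dehydrogenase that commits the carbon skeletons (482 ± 42.4 against 44.4 ± 4.79 CPM). Brown and beige fat genes were mixed, with 7 of 14 higher and 3 lower (1 lower with the replicate block). Ucp1, the uncoupling protein of brown fat, read between 0 and 2.55 CPM in both fractions and was not called (adjusted p = 0.543). Cidea, a droplet protein of brown fat, averaged 10.0 ± 6.71 against 0.362 ± 0.232 CPM.

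Insulin signalling and glucose uptake were higher at 14 of 20 genes and lower at 3. Slc2a4, the insulin-regulated transporter GLUT4, read 308, 327, 358, 293 and 533 CPM in adipocytes and 9.25, 7.26, 4.39 and 8.83 CPM in SVC (5.61, SE 0.30, adjusted p = 5.47e-11). Hormone receptors split into both directions, 9 of 18 higher and 6 lower. Ghr, the growth hormone receptor, averaged 1252 ± 217 against 44.2 ± 13.0 CPM, and Tshr, the thyrotropin receptor, 219.9 ± 12.0 against 4.77 ± 3.43 CPM, both higher in adipocytes. Igf1r, the receptor of IGF-1, averaged 8.67 ± 0.999 against 38.8 ± 10.8 CPM, and Vdr, the vitamin D receptor, 0.693 ± 0.230 against 16.6 ± 4.79 CPM, both lower. Among cholesterol genes, 11 of 20 were higher and 3 lower (8 and 2 with the replicate block): Hmgcs1, an early enzyme of the path, was higher (176 ± 38.0 against 66.1 ± 16.1 CPM), while Srebf2, a transcriptional regulator of the path (64.8 ± 7.45 against 177 ± 45.7 CPM), was lower.

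**Figure D3:**
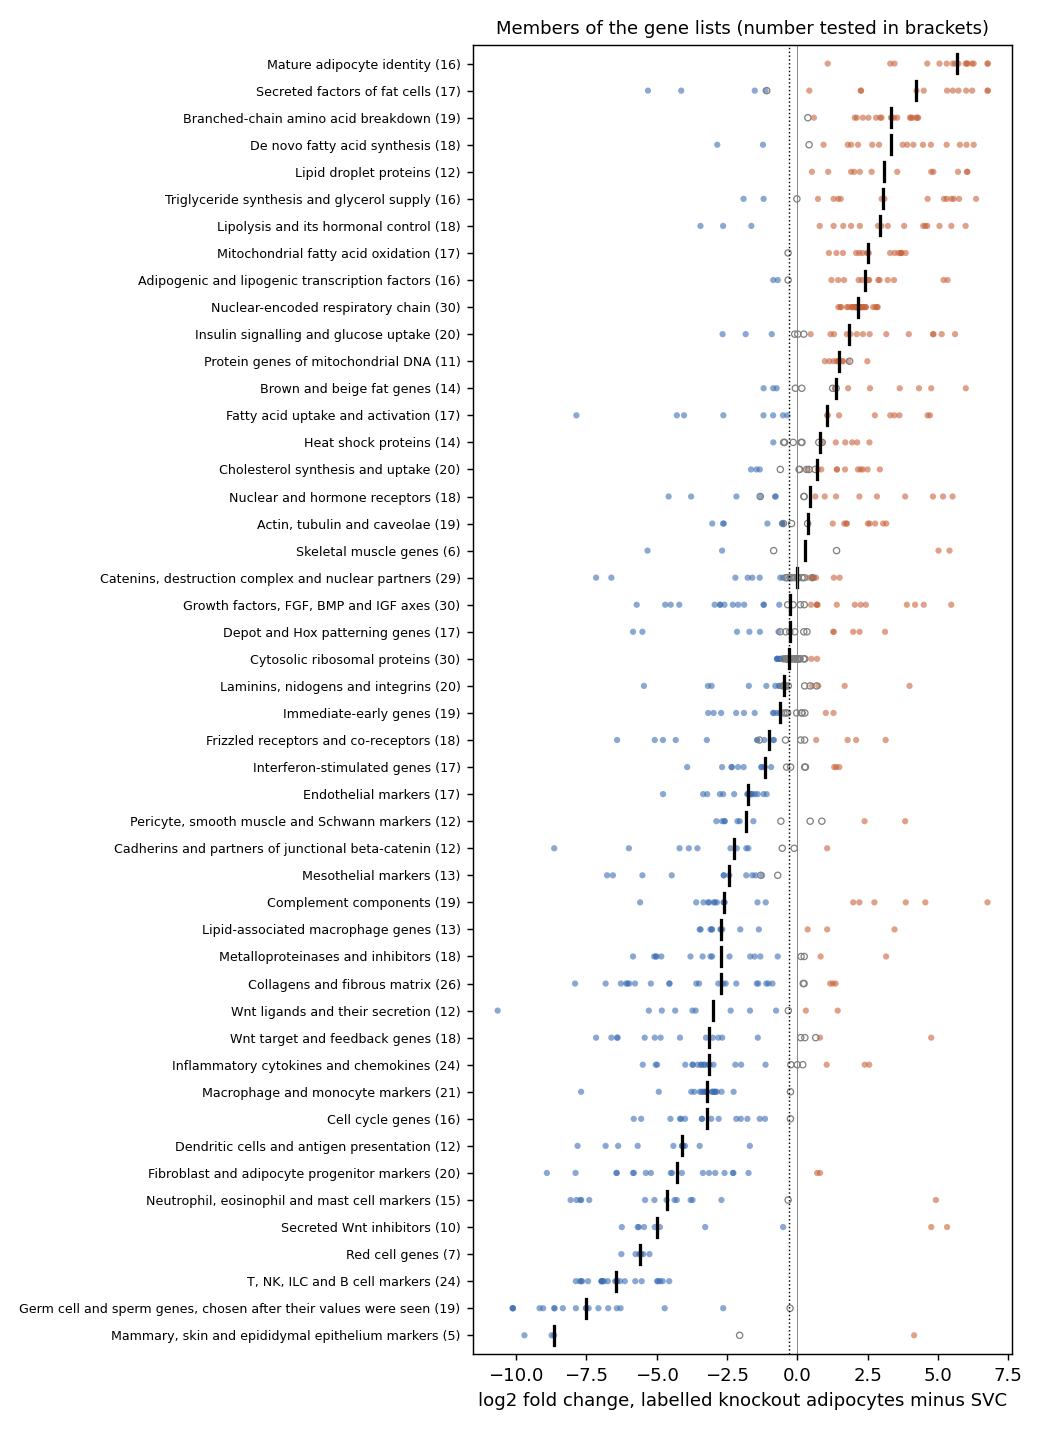
log2 fold change (adipocytes minus SVC) of each member of the gene lists, filled where called (orange higher, blue lower) and open where not, with a black bar at the list's median and a dotted line at the median of all genes tested, -0.29. Lists run from epithelial, germ cell, lymphocyte and red cell genes at the low end to mature adipocyte identity at the high end. The germ cell list was drawn up after its values were seen, and its place rests on SVC library KO4. Of its 19 genes tested 18 were lower, with a median of -7.51. Without library KO4, 0 of 18 were lower and 1 was higher, with a median of -1.32. The numbers in brackets count the genes tested.

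Fibroblast and progenitor genes were lower in adipocytes at 18 of 20 members, all 18 beyond 2-fold. Pi16, a marker of early progenitors of the fat interstitium, read 0.554, 0.156, 0.755, 0.463 and 0.416 CPM in adipocytes and 192, 139, 316 and 262 CPM in SVC (-8.90, SE 0.35, adjusted p = 5.18e-12). Dpp4, a peptidase on the same progenitors, read 1.11, 0.829, 1.41, 1.59 and 0.156 CPM in adipocytes and 65.3, 39.9, 85.4 and 44.7 CPM in SVC. Dcn, the matrix proteoglycan decorin, averaged 159.7 ± 48.7 against 3598 ± 557 CPM. The 2 members called higher were Gsn and F3. Gsn, the actin-severing protein gelsolin, read 20545, 21532, 21885, 21538 and 15487 CPM in adipocytes and 12421, 8412, 12419 and 16180.4 CPM in SVC, with an overlap between adipocyte library KO6 and SVC library KO6. Its difference, 0.71, SE 0.19, adjusted p = 0.00327, was not called with the replicate number as a block (adjusted p = 0.0892) or with scaling to library totals (0.177). F3, tissue factor, was also not called with library totals (adjusted p = 0.0803). The list's summed CPM overlapped between the fractions, 16070.4 to 22566 in adipocytes and 16594 to 27569.9 in SVC, with Gsn taking most of it in adipocytes.

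Immune genes were lower in adipocytes with few exceptions: 20 of 21 macrophage genes, 12 of 12 dendritic cell and antigen presentation genes, all 24 lymphocyte genes, 13 of 15 granulocyte and mast cell genes, and all 17 endothelial and 7 red cell genes. With the replicate block 14 of the endothelial genes were lower. Csf1r, the receptor of the macrophage growth factor, read 84.4, 83.7, 122, 120.1 and 88.3 CPM in adipocytes and 1084, 727, 1204 and 778 CPM in SVC (-3.25, SE 0.27, adjusted p = 8.89e-09). Cd3e, of the T cell receptor complex, read 0, 0.0518, 0.151, 0.0514 and 0.0520 CPM in adipocytes and 8.11, 4.74, 8.95 and 9.50 CPM in SVC (-6.87, SE 0.53, adjusted p = 3.98e-09; -7.46 without adipocyte library KO3). Il2rb, a cytokine receptor chain of T and NK cells, had a larger fold, with 0.302, 0.0518, 0.201, 0.103 and 0.0520 CPM against 112, 65.0, 136 and 99.2 CPM (-9.44, SE 0.46, adjusted p = 2.58e-11). Mcpt4, a mast cell protease, averaged 0.337 ± 0.246 against 79.0 ± 23.8 CPM. The macrophage gene not called was Mertk, a receptor for engulfing dead cells, which read 38.3, 40.0, 39.5, 32.3 and 20.6 CPM in adipocytes and 47.0, 26.1, 52.1 and 36.0 CPM in SVC. With scaling to library totals Mertk was called lower too (adjusted p = 0.00513). Elane, neutrophil elastase, was the granulocyte gene that was higher in adipocytes, at 1.86, 2.44, 2.27, 2.93 and 1.61 CPM against 0.122, 0.105, 0 and 0.0389 CPM, while other neutrophil genes of the list did not rise. Of 13 genes of lipid-associated macrophages, 10 were lower and 3 higher (2 higher with the replicate block). The 3 higher included Lpl and Fabp5, a fatty acid binding protein (178 ± 123 against 85.2 ± 19.3 CPM, not called with library totals), both of which adipocytes express as well. Cell cycle genes were lower at 15 of 16, with Mki67, a marker of dividing cells, at 2.80 ± 0.831 against 44.5 ± 11.7 CPM (-3.99, SE 0.25, adjusted p = 3.75e-10).

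Genes known from testis and gland epithelia were among those with the largest falls. Of the 12 named by the rule, 7 had no SVC library other than KO4 above 2 CPM, and 5 were not called without that library. Tuba3b, a testis tubulin, averaged 0.144 ± 0.213 against 151 ± 301 CPM, and its adjusted p was 0.0985 without library KO4. Dcdc2a, a doublecortin-family protein of cilia, had 0 counts in all 5 adipocyte libraries and read 44.3, 12.9, 0.166 and 26.4 CPM in SVC libraries KO3, KO4, KO5 and KO6. Set against a floor of 3 counts per library, its mean was at least 134-fold higher in SVC, and at least 84.5-fold without library KO3. Mmp7, a metalloproteinase of gland epithelia, had the same pattern, with 45.2, 5.61, 0.166 and 29.4 CPM and at least 129-fold, or 75.3-fold without library KO3. Library KO5 was the lowest for both, and for Epcam. Without library KO4, the same rule named Mmp7, Dcdc2a, Cdh16, Cuzd1, Epcam and Calml3, all highest in library KO3 or KO6, together with genes that were even across SVC libraries: Il2rb, Pi16, Sh2d2a, Cilp, Cma1 and Fndc1. Cilp, a matrix protein first described in cartilage, read 220.5, 156, 278 and 355 CPM in SVC and 0.856, 0.311, 1.21, 1.59 and 0.780 CPM in adipocytes. Genes of mesothelium, the lining on the surface of epididymal fat, were lower at 11 of 13. Wt1, a transcription factor of mesothelium, averaged 0.940 ± 0.234 against 42.9 ± 17.0 CPM (-5.50, SE 0.42, adjusted p = 3.94e-09), and Msln, a surface protein of mesothelium, read 5.59, 0.622, 3.93, 2.52 and 1.09 CPM in adipocytes and 5.46, 6.53, 10.2 and 4.79 CPM in SVC, with an adjusted p of 0.0685, and 0.019 with the replicate block.

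Wnt genes are given by role, beside 31.8% of all genes tested higher and 44.7% lower. Of 12 genes for ligands and their secretion that could be tested, 9 were lower in adipocytes and 2 higher. Wnt10b, a ligand that blocks adipogenesis in cultured cells, had 0 counts in all 5 adipocyte libraries and read 9.09, 6.49, 14.0 and 7.04 CPM in SVC libraries KO3, KO4, KO5 and KO6, at least 58.7-fold higher against the same floor. Wnt11 averaged 4.23 ± 1.48 against 51.8 ± 22.0 CPM (-3.61, SE 0.30, adjusted p = 9.99e-09), and Wnt5a 15.7 ± 4.00 against 26.3 ± 7.52 CPM with overlapping groups. The 2 called higher serve secretion, not signalling: Porcn, which attaches the lipid of Wnt proteins (19.9 ± 3.04 against 7.32 ± 1.87 CPM, 1.44, SE 0.18, adjusted p = 1.46e-06), and Wls, their carrier (122 ± 6.16 against 98.9 ± 21.2 CPM, 0.31, SE 0.13, adjusted p = 0.0426). Wls was not called without SVC library KO4 (adjusted p = 0.164) or KO6, without adipocyte library KO2, KO3 or KO6, or with RLE scaling, and its sign turned with library totals (-0.13).

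Receptors were lower at 10 of 18 and higher at 4. Fzd4 read 607, 650.0, 579, 508 and 336 CPM in adipocytes and 69.2, 35.9, 66.0 and 71.5 CPM in SVC (3.14, SE 0.24, adjusted p = 3.30e-09), with every adipocyte library above every SVC library. Lgr4, the receptor of R-spondins, averaged 49.1 ± 10.9 against 11.5 ± 2.47 CPM and was higher (2.10, SE 0.19, adjusted p = 3.85e-08). Lrp5 read 129, 123, 152, 110.1 and 128 against 74.7, 53.4, 72.7 and 121 CPM and was higher (0.68, SE 0.18, adjusted p = 0.0022), but not with scaling to library totals (adjusted p = 0.222). Its partner Lrp6 read 90.0, 73.0, 64.0, 73.8 and 40.6 CPM in adipocytes and 99.0, 61.9, 112 and 91.5 CPM in SVC and was not called (-0.42, SE 0.20, adjusted p = 0.0701), although it passed as lower without SVC library KO4 (adjusted p = 0.0125) or adipocyte library KO1. Fzd1 (17.4 ± 2.19 against 31.6 ± 9.98 CPM) and Fzd7 (9.79 ± 2.08 against 26.1 ± 8.93 CPM) were lower.

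Secreted inhibitors were lower at 8 of 10. The exceptions were large. Sfrp5, which binds Wnt ligands outside the cell, read 211, 167, 162, 176 and 14.7 CPM in adipocyte libraries KO1, KO2, KO3, KO4 and KO6 and 6.03, 4.46, 3.27 and 0.778 CPM in SVC (5.33, SE 0.76, adjusted p = 9.57e-06). Library KO6 was the low one among the adipocytes and still lay above each SVC library. Sfrp1, its relative, had the reverse pattern, with 1.96, 3.06, 3.78, 2.72 and 1.97 CPM in adipocytes and 141, 87.3, 102 and 220.1 CPM in SVC (-5.67, SE 0.28, adjusted p = 2.85e-11). Apcdd1, a membrane-bound Wnt inhibitor that is itself a Wnt target, read 438, 416, 370.5, 414 and 234 against 20.0, 13.9, 10.6 and 10.5 CPM (4.77, SE 0.25, adjusted p = 3.97e-11).

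Inside the cell the calls went both ways. Of 29 genes for catenins, the destruction complex and nuclear partners, 8 were higher and 9 lower, with a median log2 fold change of 0.01. Beyond 2-fold, 1 was higher and 6 were lower. The split depended on the fit: 3 higher and 9 lower with the replicate block, and 2 higher and 18 lower with library totals. Without SVC library KO4, 7 were higher and 12 lower, with a median of -0.17. Axin1, the scaffold of the destruction complex, averaged 43.3 ± 2.53 against 61.2 ± 7.59 CPM (-0.50, SE 0.10, adjusted p = 0.000273), and Gsk3b, its kinase, 57.6 ± 10.0 against 69.6 ± 7.14 CPM (-0.27, SE 0.12, adjusted p = 0.0477). The call on Gsk3b was lost when any 1 of 7 of the 9 libraries was left out, the exceptions being SVC library KO4 and adipocyte library KO1. Jup, plakoglobin, the closest relative of β-catenin, read 375, 345, 425, 320.2 and 240.0 CPM in adipocytes and 214, 121, 273 and 291 CPM in SVC (0.60, SE 0.22, adjusted p = 0.0178). Jup was not called without SVC library KO4 (adjusted p = 0.0507) or with the replicate block (0.0621). The nuclear partners differed most: Lef1 read 0, 0.0518, 0.0503, 0 and 0.156 CPM in adipocytes and 3.95, 18.8, 4.93 and 4.63 CPM in SVC (-7.15, SE 0.86, adjusted p = 9.62e-07; -6.31 without SVC library KO4, its highest, and -8.02 without adipocyte library KO6), and Tcf7 0.101, 0.363, 0.151, 0.103 and 0.104 against 20.1, 9.90, 17.2 and 19.0 CPM (-6.61, SE 0.44, adjusted p = 7.82e-10). Both are also genes of T cells. Tcf7l2 went the other way, with 25.0, 22.2, 20.2, 20.5 and 18.7 CPM in adipocytes and 12.9, 7.47, 13.9 and 19.4 CPM in SVC (0.67, SE 0.19, adjusted p = 0.00427), and was not called with the replicate block (adjusted p = 0.0541) or with library totals (0.245). Of 18 target and feedback genes, 13 were lower, led by Cd44, a hyaluronan receptor of many stromal and immune cells (25.3 ± 4.09 against 455 ± 109 CPM). Axin2, the standard readout of the pathway, read 19.3, 11.1, 14.3, 14.3 and 9.61 CPM in adipocytes and 11.7, 5.09, 7.91 and 10.2 CPM in SVC, and its difference of 0.66, SE 0.29, adjusted p = 0.0506 did not pass. It did pass without SVC library KO3 or without adipocyte library KO2 or KO6 (adjusted p = 0.0279 to 0.0454). Among cadherins and their partners 9 of 12 were lower. Vcl, vinculin, was the member that was higher (332 ± 25.3 against 159 ± 49.6 CPM, 1.07, SE 0.17, adjusted p = 2.53e-05).

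Matrix genes were for the most part lower in adipocytes. Of 26 collagens and fibrous matrix genes, 21 were lower in adipocytes and 3 higher. Fn1, fibronectin, averaged 123 ± 36.0 against 4533 ± 1239.7 CPM (-5.20, SE 0.27, adjusted p = 4.55e-11), and Col3a1, of fibrillar collagen III, 300.3 ± 89.1 against 2101 ± 486 CPM. The 3 higher were Col5a3 (537 ± 153 against 223 ± 59.5 CPM), Col18a1 (279 ± 65.3 against 124 ± 45.4 CPM) and Col15a1, which read 1247, 776, 912, 821 and 1210.0 CPM in adipocytes and 332, 223, 276 and 712 CPM in SVC. Collagens XV and XVIII belong to basement membranes. Among 20 laminins, nidogens and integrins 4 were higher and 8 lower, beside 31.8% and 44.7% of all genes tested. The counts were 3 and 13 without SVC library KO4, and 2 and 13 with library totals. Itga7, a laminin receptor chain known from muscle, was higher (434 ± 48.7 against 27.2 ± 17.0 CPM, 3.99, SE 0.32, adjusted p = 7.27e-09). Of 18 metalloproteinases and inhibitors 14 were lower, and Timp4, the inhibitor typical of fat, was higher (578 ± 71.1 against 64.7 ± 28.3 CPM) while Timp2 (55.7 ± 16.1 against 1780.3 ± 344 CPM) and Timp3 (149.7 ± 19.8 against 794 ± 417 CPM) were lower. The caveolar coat stood out among 19 cytoskeletal and caveolar genes, of which 9 were higher and 7 lower (4 lower with the replicate block). Cav1, its main protein, averaged 3861 ± 326 against 429.9 ± 214 CPM (3.17, SE 0.26, adjusted p = 7.25e-09), and Tmsb4x, an actin-binding peptide abundant in leukocytes, fell from 1143 ± 254 CPM in SVC to 141 ± 40.7 CPM.

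Complement components went both ways. Beside Cfd, adipocytes were higher in C6, a part of the membrane attack complex (143 ± 33.9 against 6.05 ± 1.82 CPM, 4.56, SE 0.46, adjusted p = 1.49e-07), and in Cd59a, which blocks that complex (115 ± 33.1 against 7.92 ± 3.89 CPM). C7, which joins the complex after C6, was lower (25.3 ± 8.01 against 1214 ± 316 CPM, -5.58, SE 0.30, adjusted p = 6.67e-11), as was C3, the central component (636 ± 154 against 3840.0 ± 662 CPM). In all, 6 of 19 were higher and 13 lower, beside 31.8% and 44.7% of all genes tested. Of 24 cytokines and chemokines, 18 were lower, among them Il1b (19.3 ± 10.7 against 608 ± 145 CPM). The 3 that were higher were Cxcl9 and Cxcl10, chemokines induced by interferon-γ, and Il34, a second ligand of Csf1r. Cxcl10 read 357, 561, 497, 335 and 495 CPM in adipocytes and 94.3, 51.8, 95.8 and 98.0 CPM in SVC (2.40, SE 0.30, adjusted p = 1.72e-06), and Il34 23.8, 26.1, 26.1, 24.1 and 24.7 against 16.1, 4.67, 9.61 and 17.9 CPM (1.05, SE 0.27, adjusted p = 0.0019). Of 17 interferon-stimulated genes 3 were higher and 10 lower. Of 30 growth factors and their binding proteins, 12 were higher, among them Vegfb (239.9 ± 12.5 against 13.1 ± 2.21 CPM), and 14 lower, among them Igfbp6 (8.00 ± 3.61 against 207 ± 40.8 CPM). These shares lie near those of all genes tested.

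Pairs of related genes fell into several patterns. Of 20 pairs of related enzymes, carriers and receptors with both members tested, 10 pairs were higher in adipocytes at both members, 6 were higher at the first and lower at the second, 3 were higher at the first only, and in the pair of Ctnnb1 and Jup only Jup was called. The first of each pair was entered as the adipocyte member when the pairs were drawn up, so a higher first member is not a finding. With 31.8% of all genes higher and 44.7% lower, calls in opposite directions are not particular to these pairs. Hexokinases were 1 of the 6 pairs: Hk2 read 562, 675, 731, 532 and 607 CPM in adipocytes and 183, 137, 198 and 212 CPM in SVC, whereas Hk1 read 26.9, 25.8, 34.0, 30.6 and 24.6 and 88.3, 425, 91.8 and 109 CPM. Hk1 was highest in SVC library KO4, and its log2 fold change was -2.65, SE 0.38, adjusted p = 8.11e-06 with that library and -1.77 without it. Of the phosphodiesterases that end the cAMP signal, Pde3b averaged 404 ± 115 against 50.8 ± 14.2 CPM and Pde3a 1.33 ± 0.365 against 19.3 ± 8.58 CPM. Akt2, the insulin-linked kinase, averaged 796 ± 163 against 183 ± 20.2 CPM, and its relative Akt1 130.3 ± 16.5 against 244 ± 47.7 CPM. Acsl1 and Acsl4, which activate fatty acids, averaged 2609 ± 335 against 99.0 ± 77.6 CPM and 36.2 ± 5.90 against 65.5 ± 16.3 CPM. Lpin1 and Lpin2, phosphatases on the way to triglyceride, averaged 550.1 ± 137 against 64.1 ± 57.6 CPM and 14.0 ± 2.41 against 52.7 ± 11.9 CPM. SVC library KO4 raised the SVC mean of Acsl1 and of Lpin1, whose log2 fold changes were 4.72 and 3.10 with it and 5.40 and 3.95 without it. The other such pair was Sfrp5 and Sfrp1. For Slc2a1, GLUT1, the groups overlapped (76.2 ± 28.8 against 81.2 ± 31.5 CPM, -0.09, SE 0.33, adjusted p = 0.811), in contrast to Slc2a4.

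**Figure D4:**
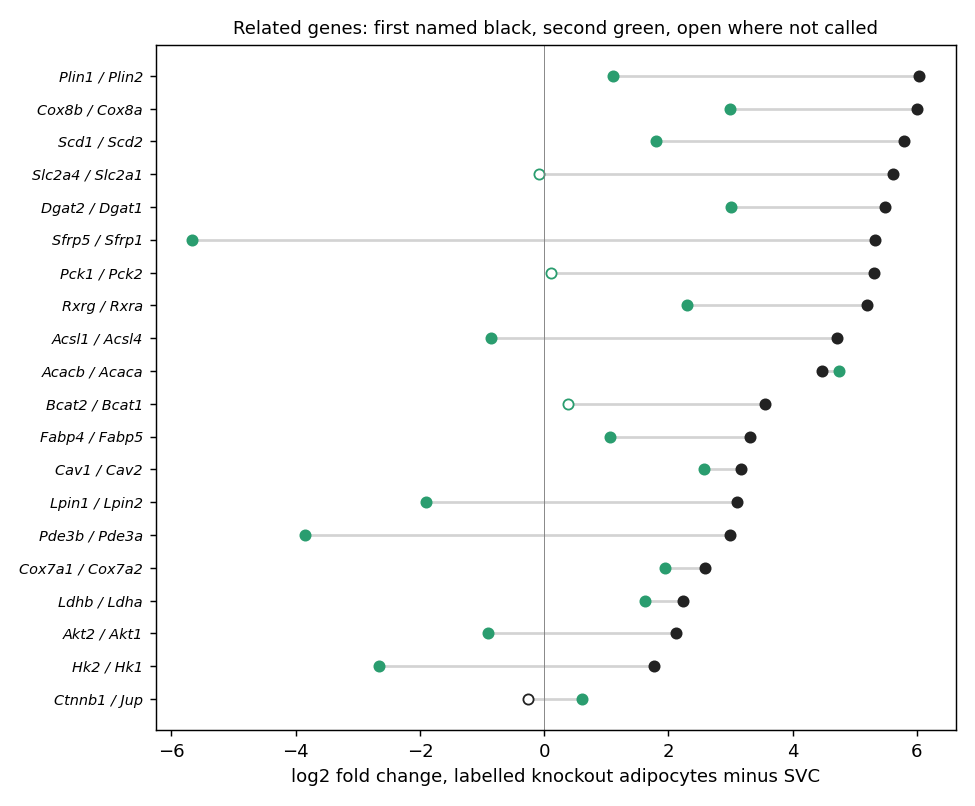
log2 fold change (adipocytes minus SVC) of both members of 20 pairs of related genes, the first named in black and the second in green, filled where called and open where not. The first named was entered as the adipocyte member when the pairs were drawn up. In 6 pairs the members lie on opposite sides of 0 and both are called.

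Ribosomal genes hardly separated the fractions. Of 30 cytosolic ribosomal protein genes 2 were higher and 10 lower, none beyond 2-fold, with a median of -0.30 against -0.29 for all genes. With the replicate block 1 was higher and 1 lower, and with library totals none was higher and 22 were lower. Srrm1, Tprgl and Ubap2l, named for their near equality, had log2 fold changes of -0.03, 0.03 and 0.07, and with library totals Tprgl and Ubap2l turned to -0.42 and -0.38.

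Patterning, stress and mural genes held calls in both directions, beside 31.8% higher and 44.7% lower of all genes tested. More heat shock genes were called higher than lower, and more immediate-early and mural genes lower than higher. Of 17 Hox and other patterning genes 5 were higher and 6 lower, and of 16 tested with the replicate block 5 were higher and 3 lower. Hoxc8, a positional gene of the posterior trunk, read 90.1, 98.7, 88.0, 88.0 and 74.5 CPM in adipocytes and 10.6, 7.97, 10.2 and 11.7 CPM in SVC (3.12, SE 0.17, adjusted p = 8.01e-11). Tcf21, a factor of visceral fat progenitors, averaged 1.45 ± 0.283 against 82.9 ± 25.4 CPM (-5.84, SE 0.37, adjusted p = 4.71e-10). Of 14 heat shock genes 6 were higher and 1 lower, with Hspd1, a mitochondrial chaperone, at 613 ± 113 against 187 ± 27.4 CPM (1.71, SE 0.28, adjusted p = 3.69e-05), and of 19 immediate-early genes 2 were higher and 10 lower. With the replicate block 4 heat shock genes were higher and 3 lower. Immediate-early and heat shock genes respond to tissue handling, and the part of digestion in their differences was not tested. Of 12 mural and Schwann genes 2 were higher and 7 lower. The 2 higher, Mcam (753 ± 109.5 against 52.6 ± 25.6 CPM) and Cspg4 (60.4 ± 23.0 against 11.5 ± 9.89 CPM), are surface proteins of pericytes, while Myh11, a smooth muscle myosin, was lower (7.81 ± 2.26 against 57.3 ± 41.8 CPM). Without SVC library KO6, the log2 fold changes of Cspg4 and Myh11 were 3.16 and -2.28, against 2.39 and -2.87 with it. Of 6 skeletal muscle genes tested 2 were higher and 2 lower. Acta1 (22.4 ± 7.20 against 0.682 ± 0.173 CPM) and Myl1 (40.9 ± 4.67 against 0.954 ± 0.307 CPM) were higher in adipocytes, while Des, the intermediate filament desmin of all muscle types (8.40 ± 2.60 against 53.5 ± 31.8 CPM), and Tnnt3 (0.0201 ± 0.0450 against 1.04 ± 0.621 CPM) were lower.

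The same contrast in the 9 control libraries, which share no library with the labelled knockouts, gave 5661 genes higher and 7632 lower. Of the labelled knockout calls, 91.7% of the higher and 91.3% of the lower were also called in controls in the same direction. Of the control calls, 88.8% and 92.2% were called in labelled knockouts. Across genes, which are not independent, the fold changes of the 2 contrasts correlated at r = 0.961, with a median absolute difference of 0.31. Tested directly, knockout minus control, 0 genes (0%) differed at an adjusted p below 0.05 in edgeR. The smallest adjusted p was 0.287, and 1149 genes had an unadjusted p below 0.05. DESeq2 called 14 genes, limma on the authors' rlog values 3, and limma-voom 0.

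The genes of smallest p in that test were Fgf1, Vat1l and 9230104L09Rik with a more positive contrast in labelled knockouts, and C130012C08Rik, Rxrg and Slc22a4 with a more negative one, none of them called. Fgf1, a growth factor of fat cells and other tissues, was higher in adipocytes of labelled knockouts (59.9, 52.3, 51.4, 56.2 and 44.6 CPM against 28.8, 14.5, 17.7 and 18.8 CPM in SVC, 1.41, SE 0.25, adjusted p = 7.05e-05). In controls its log2 fold change was -0.60 (adjusted p = 0.034), and the difference of 2.01 (SE 0.35) had an adjusted p of 0.287. Fgf1 was 1 of 2 genes called in opposite directions under the 2 labels, a description that does not replace the test of the difference. Rxrg, a retinoid X receptor, had a log2 fold change of 5.20 in labelled knockouts and 7.56 in controls, and the difference of -2.35 (SE 0.46) had an adjusted p of 0.324. For Vat1l and Slc22a4, a carnitine-related transporter, a difference of 2.95 (SE 0.57) had an adjusted p of 0.324 and one of -1.19 (SE 0.24) had an adjusted p of 0.324, in that order. For Ctnnb1 a difference of -0.16 (SE 0.24) had an adjusted p of 0.894. The median contrast of the mature adipocyte list was 5.67 in labelled knockouts and 6.77 in controls, with 4 of its 16 genes at an unadjusted p below 0.05 for the difference and none called.

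**Figure D5:**
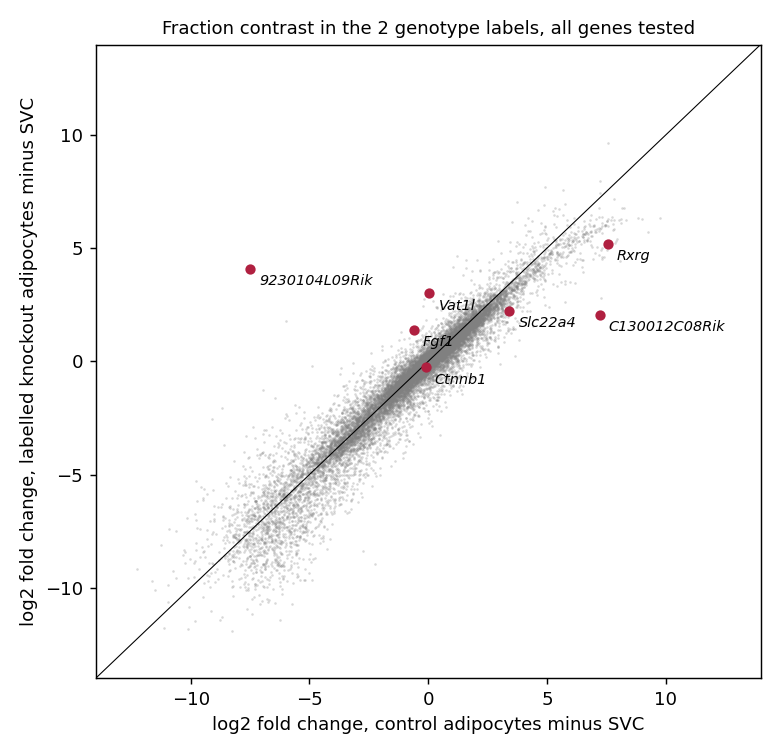
log2 fold change (adipocytes minus SVC) of each of the 17251 genes tested in control (horizontal) and labelled knockout (vertical) libraries, with the line of equality and 7 named genes in red. Genes lie along the line (r = 0.961), with Fgf1, Vat1l and 9230104L09Rik above it and Rxrg, Slc22a4 and C130012C08Rik below it, and no difference was called.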

How the data were processed

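Gene counts came from bulk RNA-seq of 30 libraries, of which the 18 male ones were fitted. Raw counts for 35120 genes (33501 with a symbol) were deposited as whole numbers, and a second table holds log2 values after the authors' rlog transformation, per the file headers. FastQC 0.12.1, STAR 2.7.11a, DESeq2 and the mm39 build are named in the submitters' processing notes. How reads were assigned to genes, and whether by strand, is not given in the sources used here. Near-identical copies, such as Hbb-bs, the Scd genes, mast cell proteases and ribosomal proteins, may have shared reads and are uncertain, as are antisense genes.

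The 4 male groups were fitted together with edgeR 4.0.16 in R 4.3.3 (TMM scaling, filterByExpr with a minimum count of 10, robust quasi-likelihood test, Benjamini-Hochberg adjustment over 17251 genes), and glmTreat tested for more than a 2-fold change. CPM values are deposited counts scaled by TMM-adjusted library size. DESeq2 1.42.0 and limma 3.58.1 gave alternatives, as did other scalings and filters, the knockout libraries alone, each library left out and the replicate number as a block. Single values were compared by exact two-sided permutation tests. Floors of 3 counts cover counting error only. No 2 libraries of a group were alike within sampling noise (lowest chi-square per degree of freedom 12.9).

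Column-name numbers 3, 4 and 6 occur in both fractions of the labelled knockouts. Same-numbered libraries deviated together (r = 0.200, 0.254 and 0.194 across genes). The highest r of differently numbered libraries was 0.149 in labelled knockouts (adipocytes KO2 with SVC KO4). In controls it was 0.273 (adipocytes 1 with SVC 2). The consensus correlation of same-numbered libraries over both genotypes was 0.075. The main fit used no block, and the replicate number served as a block in alternatives only. Sample titles number the libraries differently.

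Counts were simulated for the fraction contrast in labelled knockouts (17251 genes) with nearly all genes equal between the fractions. Of 99 genes changed 2-fold, 37.4% were recovered, and of 95 changed 4-fold, 75.8%. Of the unchanged genes, 0.0240% were called. For the difference between genotypes the shares were 15.3%, 42.9% and 0.00595%. In the data 76.5% of genes were called between the fractions, so the simulated shares for that contrast do not carry over to it.

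The libraries compared and all 47 gene lists were chosen with earlier results of these data known. The naming rule took Ctnnb1, the 12 largest changes each way, the 3 smallest p each way of the genotype difference, up to 3 leading and 2 opposing members of each list, both members of related pairs and the 3 most nearly equal genes. It gave 250 genes, some of which are not reported here. Lep, Pparg, Pdgfra, Pi16, Dpp4, Cd3e, Ucp1, Axin2, Tcf7l2, Lef1, Tcf7, Ldhc, Akap4, Acly, Me1, Cilp, Il2rb, Cdh16, Calml3, Sh2d2a, Cma1, Fndc1, Msln, Adra2a, Mertk, Lrp5, Lrp6, Col15a1, Il34, Wnt10b, Fads1 and Nrg4 were named after their values were seen, as was the list of germ cell genes. Promoter sequences are from RefSeq on GRCm38.p6.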

Additional observations from a re-analysis of the deposited data

Results flagged for a closer look

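In 35 of 348 groups of libraries examined, the highest or lowest library stood apart from the others by Dixon's criterion, which chance alone meets in about 1 group of 20. Some of the genes, and the list of germ cell genes, were named after their values were seen, among them Ldhc, Akap4, Lef1, Acly, Me1 and Tcf7, so the number of such groups cannot be read against that share. Most of these values came from adipocyte library KO6 and SVC library KO4.

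Adipocyte library KO6 was the highest of its group for genes of lipid synthesis. It read 31226 CPM for Fasn, where the others lay between 3654 and 10200.4, 3196 for Acaca (others 594 to 1053), 5909.5 for Acly (375 to 983) and 1874 for Me1 (483 to 685). It read 6137 CPM for Thrsp (1092 to 1306), 1313 for Srebf1 (486 to 549), 4581 for Gpd1, the glycerol phosphate dehydrogenase (1202 to 1369.9), and 22.9 for Fads2 (2.54 to 4.63). It read 258 CPM for Fads1 (120.0 to 150.2) and 12.9 for Des (6.43 to 7.88). It was also highest for Slc2a4 at 533 CPM (293 to 358), Atp5b at 4874 (2769 to 3282), Fabp5 at 396 (105 to 147) and Cidea at 21.7 (5.69 to 9.90). The same library was the lowest for Sfrp5 at 14.7 CPM (162 to 211), for Gsn at 15487 (20545 to 21885) and for the summed fibroblast and progenitor list at 16070.4 (21172 to 22566).

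SVC library KO4 was the highest of its group for Ldhc at 968 CPM (others 0.774 to 3.97), Akap4 at 347 (0.373 to 2.02), Tuba3b at 603 (0.663 to 1.40), Hk1 at 425 (88.3 to 109), Lef1 at 18.8 (3.95 to 4.93) and Lpin1 at 149.7 (26.3 to 45.1). Its share of germ cell genes was 0.834% (others 0.00423% to 0.00853%). It was the lowest for Cxcl10 at 51.8 CPM (94.3 to 98.0), Fzd4 at 35.9 (66.0 to 71.5), Igf1r at 22.6 (43.3 to 44.7) and the summed mature adipocyte list at 3933 (5332 to 5569).

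Of the other values, SVC library KO5 read 824 CPM for Il1b (528 to 548). Adipocyte library KO1 read 809 CPM for Col5a3 (447 to 494) and 0.956 for Tcf21 (1.46 to 1.66), and 0.101 for Tnnt3, which had 0 counts in the others. Adipocyte library KO2 read 0.363 CPM for Tcf7 (0.101 to 0.151), library KO3 read 187 for Ubap2l (159 to 165) and library KO4 read 0.514 for Tuba3b (0 to 0.104).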

How the results depend on the processing

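The count of genes that differed between the fractions stayed within 1.5 times of 13199 under every alternative run: 10818 with the knockout libraries alone, 11324 with a mean of at least 1 CPM, 14876 with no filter, 12638 with DESeq2, 12430 with limma-voom, 13472 with library totals, 12778 to 13060 without each labelled knockout library in turn, and 13066 to 14130 without each control library in turn. The replicate block rests on labelled knockout numbers 3, 4 and 6, fitted with control numbers 2, 4 and 5. With it 11165 genes were called (4462 higher and 6703 lower), and 7069 against 8269 beyond 2-fold. Beyond 2-fold 7985 to 8100 were called without each labelled knockout library and 8188 to 8947 without each control library. The difference between genotypes gave 0 genes in edgeR, 14 with DESeq2, 3 with limma on rlog values, 0 to 1 without each library in turn (1 without control SVC library 4 or 5) and 0 with the replicate block, where 453 genes had an unadjusted p below 0.05. Same-numbered control libraries correlated at r = -0.012, 0.193 and 0.202 for numbers 2, 4 and 5. The replicate block treated these control numbers as pairs too, although not every pair passed 0.1. The difference in the mitochondrial DNA share, 0.886 percentage points, lay between 0.733 and 1.08 without each library in turn. Of 155 genes shown, 130 kept their direction and side of the threshold under every alternative run on single genes, which leave out labelled knockout libraries only. Of 3082 values under alternatives, 43 lost a call, 31 gained one and 3 turned sign, all with library totals: Tprgl to -0.42, Ubap2l to -0.38 and Wls to -0.13. The cause was not tested. Depth of 20484836 counts or more leaves single counts near 0.05 CPM, and genes below about 1 CPM rest on few counts.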
